A study of Mus musculus with 18 samples.

Results

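Binding of RAD21, the kleisin subunit of cohesin, was examined at the immunoglobulin (Ig) light chain loci of mouse splenic B cells. All peaks were taken whose centre lay in the Igk window, chr6:67500000-70720000, or in the Igl window, chr16:19000000-19290000 (mm9). Of 54864 peaks in 12 lists, 85 lay at Igk and 37 at Igl. Peaks of different lists that shared at least 1 bp were counted as 1 site, which gave 21 Igk and 8 Igl sites, 29 of the 18957 sites in the genome. Igk sites were numbered along chromosome 6 from the first V gene segments to the 3′ end, and Igl sites along chromosome 16. The rule used coordinates alone, but earlier results of these data were known when the loci were chosen.

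The B cells came from spleens of wild-type C57BL/6J mice (C57BL/6 in the labels) aged 8 to 10 weeks. They were resting (0 h) or had been cultured with 50 µg/ml LPS and 2 ng/ml IL-4, for 48 h or for 96 h, a combination that activates B cells and induces the switch to IgG1. Each time point had 3 replicates, and each replicate pooled the cells of 12 mice. At 96 h the cells were also enriched for IgG1-positive cells by negative selection, so the longer culture and the purification cannot be told apart. The 12 lists comprise 1 for each of the 9 replicates and 3 pooled lists, called on the merged reads of a time point. The lists hold no expression values, so the B cell label was not checked against marker genes.

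The lists differed in length. Resting replicates 1, 2 and 3 held 2097, 821 and 3578 peaks, 48 h replicates 1538, 5254 and 1563, and 96 h replicates 2807, 4552 and 8579. Replicate 2 at 48 h stood apart: for 4763 of the 18957 sites in the genome (25.1%) it was the only replicate with a peak. At other sites outside the chromosomes used to learn the motif described below, 63.0% of those known from that replicate alone contained a tandem repeat (20 bases or more, with a unit of up to 4), against 4.87% of the remaining ones. At the light chain loci, 6 sites, all among the Igk V genes, were known from that replicate alone. Site density and the share of sites with the motif are given with and without them. Shares of peaks include them, and some comparisons are repeated without that replicate. Only peaks past the threshold of the peak caller are listed, and cohesin may have been bound below it at a site without a peak. The score of a peak is given as its percentile, the percent of peaks in the same list with a score at or below it. A percentile depends on the other peaks of its list, so a difference between lists need not be a difference in binding.

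Light chain genes are assembled in developing B cells by recombination of a V to a J gene segment, and mature splenic B cells express the product. At Igk, a long array of V segments in both orientations is followed by the V-J interval, the J segments, an intron that contains the intronic enhancer, the single constant segment Igkc and, further downstream, the 3′ enhancers. The V-J interval is known to hold elements bound by CTCF, the zinc finger protein at which cohesin commonly stops on chromatin, and these elements influence which V segments recombine. Mouse Igl is much smaller and duplicated, with V segments upstream of each cluster of J and C segments and an enhancer downstream of each cluster. Neither the enhancers nor the elements of the V-J interval are in the annotation used here (GENCODE release M1), so sites were placed by the distance of their centre from annotated segments. The Igk window holds 99 annotated V segments, 38 on the plus and 61 on the minus strand, 5 J segments and Igkc. The Igl window holds 3 V segments, Iglv1, Iglv2 and Iglv3, and the constant genes Iglc2 and Iglc3, all on the minus strand.

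The sequences found near the centres of most sites are shown first. A 20-base motif was learned from 520 sites on chromosomes 1 to 10, without chromosome 6, each called in 6 or more of the 9 replicates. Its core, CCANNAGNNGGC, is that of the known CTCF motif. It was searched on both strands within 100 bp of each site centre, and a score of 8.50 log2 odds or more counted as a match, a level passed by 5% of windows 1000 bp away from the training sites. A match describes the sequence and does not show that CTCF was bound. The best match is given below for 9 of the 11 sites with a peak in at least 3 replicates, and for Igk-3 and Igk-19 as near copies, in 30 bases from mm9, 5′ to 3′ on the strand of the match, with the match in capitals.
Igk-3: attccTCCAGTAGAGGGAGATAGAGgactt
Igk-6: attccTCCAGTAGAGGGAGATAGAGgactt
Igk-8: ttgccGTCACAAGATGGCGCCAGATtccgc
Igk-10: aggaaGCCAGAAGATGGTGCTGGAActccc
Igk-13: aaatgGCCAGGAGAGGGAGCCAGAAtatag
Igk-18: gctgtATCAGCAGATGGCAGTGTTGtataa
Igk-19: gctgtGTCAGCAGATGGCAGTGCTGtataa
Igk-20: cagtgGCCAGAAGGGAGCGCTCCAGcccag
Igk-21: ctgtgCCCACTAGGGGGCTCTCCTGctctt
Igl-4: ataaaGCCACTAGAGGGTGGTGTGAccctt
Igl-8: ataaaGCCACTAGAGGGTGGTGTGAccctt

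The match lay on the plus strand at Igk-3, Igk-6, Igk-8 and Igk-10, and on the minus strand at the other 7 sites shown. The 30 bases were the same at Igk-3 and Igk-6, and at Igl-4 and Igl-8.

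A match was found at 22 of the 29 light chain sites, 75.9% (exact binomial 95% interval, 56.5 to 89.7%, counting error only). It was present at 15 of 21 Igk sites and at 7 of 8 Igl sites. Outside the training chromosomes, 65.8% of 8798 other sites and 6.23% of windows 1000 bp away from them held one. The sites without it were mostly those of the replicate that stood apart. Only 1 of the 6 sites known from 48 h replicate 2 alone had a match, against 21 of the remaining 23 (91.3%). The 8798 other sites include 2288 known from that replicate alone. Their motif share was not computed for either class, so 91.3% has no like value beside it. All 11 sites with a peak in at least 3 replicates had one, while the same class of sites elsewhere had it in 90.7% of cases. Of the 5 sites called in pooled lists only, 3 had a match.

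The strand of the motif followed the arrangement of the loci. Among the first 10 Igk sites, 5 matches were on the plus strand and 1 on the minus strand, whereas the 5 matches among sites 11 to 17 were all on the minus strand. In the V region, 10 of 11 matches lay on the strand of the nearest V segment, and Igk-5, a site known from 48 h replicate 2 alone, was the exception. All 4 matches in the V-J interval and 3′ of Igkc were on the minus strand, opposite to the J segments and Igkc. At Igl, the 3 matches within 5000 bp upstream of a V segment were on the strand of that segment, and the 4 others were on the opposite strand. These counts are a description, since neighbouring V segments and copied sites share sequence.

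**Figure D1:**
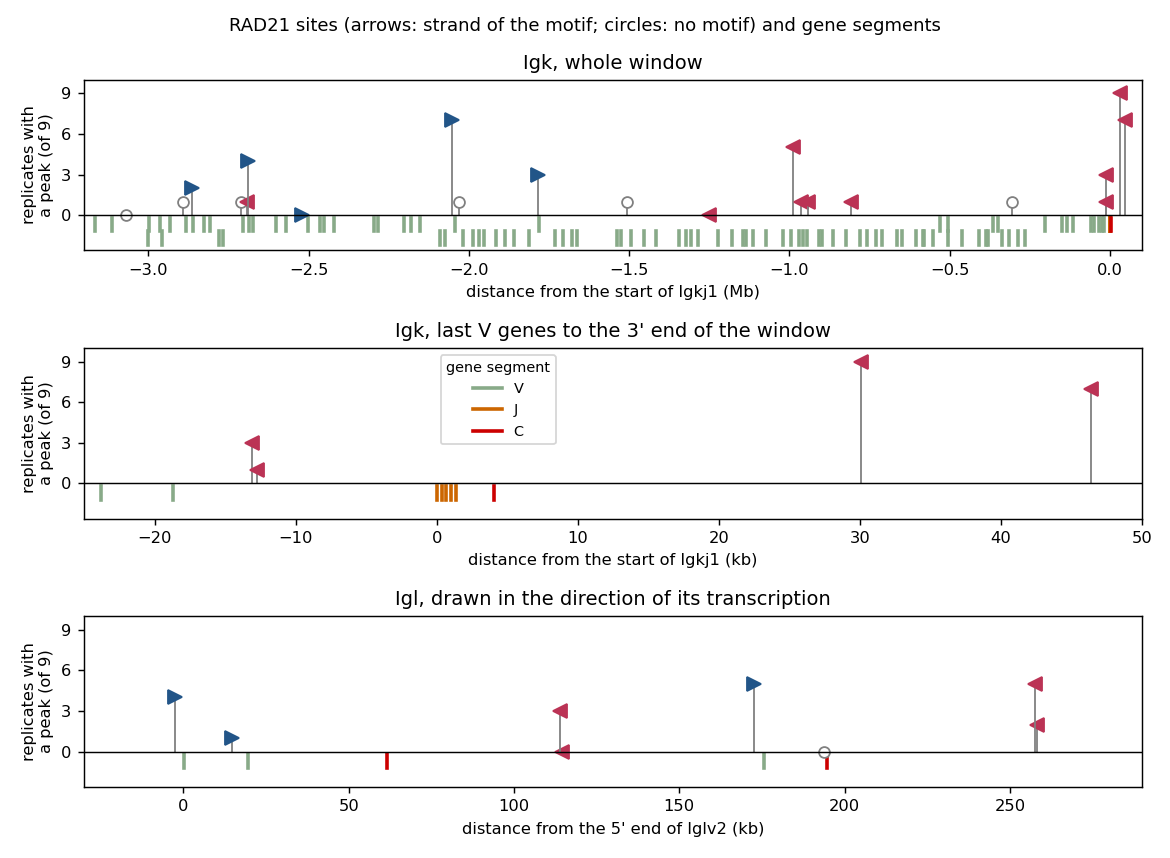
RAD21 sites along Igk (whole window in Mb, and its 3′ end in kb, from the start of Igkj1) and Igl (in kb from the 5′ end of Iglv2, drawn in the direction of transcription), with the number of the 9 replicates with a peak on the vertical axis. Arrowheads give the strand of the motif (blue, pointing right; red, pointing left), circles mark sites without it, markers at 0 are sites of pooled lists only, and ticks below the line are V (green), J (orange) and C (red) segments, with the lower row of ticks pointing left; Igk-20, 30090 bp past the start of Igkj1, reached 9 replicates, and no site lay between Igkj1 and the end of Igkc.

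The share of peaks that fell at Igk was highest in resting cells and lowest at 96 h. In resting replicates 1, 2 and 3, Igk held 5, 5 and 9 peaks, or 0.238%, 0.609% and 0.252% of the list. At 48 h it held 5, 7 and 4 peaks, or 0.325%, 0.133% and 0.256%. At 96 h it held 2, 4 and 9 peaks, or 0.0713%, 0.0879% and 0.105%. All 96 h replicates were below all resting and all 48 h replicates, while the resting and 48 h replicates overlapped. In 48 h replicate 2, 6 of the 7 Igk peaks were at the sites known from it alone, and only the peak at Igk-20 was not. Its place above the 96 h replicates rests on those 6 peaks, and its share without them was not computed. The exact binomial 95% intervals were wide, from 0.198 to 1.42% in resting replicate 2 and from 0.0480 to 0.199% in 96 h replicate 3, and cover counting error only. The means were 0.366% ± 0.210, 0.238% ± 0.0972 and 0.0880% ± 0.0168 (SD, n = 3 each) in resting, 48 h and 96 h cells.

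Differences of this size were not separated by the tests. The F statistic over the 3 time points was 3.24 (exact permutation test, p = 0.0964). The mean share at 96 h was lower than in resting cells by 0.278 percentage points and lower than at 48 h by 0.150 (exact permutation test, two-sided p = 0.1 for both, adjusted p = 0.15), and 0.1 is the smallest p that 3 against 3 replicates allow. The difference between 48 h and resting cells was -0.128 percentage points (exact permutation p = 0.6, adjusted p = 0.6), and -0.0069 without resting replicate 2, the shortest list (exact permutation p = 1). Without that replicate the difference between 96 h and resting cells was -0.157 (exact permutation p = 0.1). The number of Igk peaks, not divided by list length, gave an F statistic of 0.21 (exact permutation p = 0.843) and a difference of -1.33 peaks between 96 h and resting cells (exact permutation p = 0.6). Without 48 h replicate 2 the F statistic was 3.34 (exact permutation p = 0.0893). The difference was then -0.0758 percentage points between 48 h and resting cells and -0.202 between 96 h and 48 h cells. With only the top 821 peaks by score kept in every list, which is the length of the shortest, Igk held 3, 5 and 3 peaks in resting, 1, 1 and 2 in 48 h and 1 in each of the 96 h replicates, and the F statistic was 11.4 (exact permutation p = 0.0357). In these shortened lists the difference was -0.325 percentage points between 96 h and resting cells (exact permutation p = 0.1) and -0.0406 between 96 h and 48 h cells (exact permutation p = 1).

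Igk takes up 0.126% of the sequenced base pairs of the genome. The share of peaks was above this value in the 6 resting and 48 h replicates, in 48 h replicate 2 only with the 6 peaks at sites known from it alone. In the 3 replicates at 96 h the share was below this value. The mean difference over the 9 replicates was 0.105 percentage points (exact sign-flip permutation test, two-sided p = 0.0625). This test takes the 3 time points together and assumes differences symmetric about 0, whereas a share cannot fall below 0, so its p-values are rough. The mean difference was 0.0577 without resting replicate 2 (exact permutation p = 0.125), and 0.0239 within the annotated segments, which leave out the sites 3′ of Igkc (exact permutation p = 0.547). The locus is repetitive. Of its 32-base words, 58.2% occur once in the genome, against 83.8% of words drawn from the whole genome, and Igk holds 0.0875% of the words found once. Against that share, 8 replicates were above, 48 h replicate 2 again only with those 6 peaks, and 1 was below. The mean difference was 0.143 percentage points (exact permutation p = 0.0117). Site density was 6.52 sites per Mb at Igk and 7.41 in the genome, or 4.66 and 5.55 without the sites known from 48 h replicate 2 alone.

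Igl, which takes up 0.0113% of the sequenced base pairs, held at least 1 peak in 7 of the 9 replicates. Resting replicates had 4, 1 and 4 Igl peaks, 48 h replicates 0, 0 and 2, and 96 h replicates 1, 3 and 5. As shares these were 0.191%, 0.122% and 0.112% in resting cells, 0, 0 and 0.128% at 48 h, and 0.0356%, 0.0659% and 0.0583% at 96 h. The counts of 0 among 1538 and 5254 peaks allow shares of up to 0.195% and 0.0571% when the limit is set at 3 counts of the list, and of up to 0.240% and 0.0702% by the exact binomial 95% interval. The means were 0.141% ± 0.0430, 0.0427% ± 0.0739 and 0.0533% ± 0.0157 (SD, n = 3 each). Every 96 h replicate was below every resting replicate, while the 48 h replicates overlapped the resting range and reached both above and below the 96 h range.

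Over the 9 replicates, the Igl share exceeded its share of the genome by 0.0678 percentage points, in 7 of 9 replicates (exact sign-flip permutation test, two-sided p = 0.0156). A single Igl peak puts any of these lists above that share, so the 7 are simply those with at least 1 Igl peak. Resting replicate 2 and 96 h replicate 1 were above it on 1 peak each. The replicates below it were those at 48 h without an Igl peak. The test takes the 3 time points together and assumes differences symmetric about 0. A share cannot fall below 0, so this p cannot decide whether Igl holds an excess. The time points were not separated (F = 3.50, exact permutation p = 0.139), and the difference of -0.0882 percentage points between 96 h and resting cells had the smallest p the design allows, 0.1 (exact permutation test). Site density at Igl was 27.6 sites per Mb, with or without the replicate that stood apart. Of its 32-base words, 67.6% occur once in the genome.

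**Figure D2:**
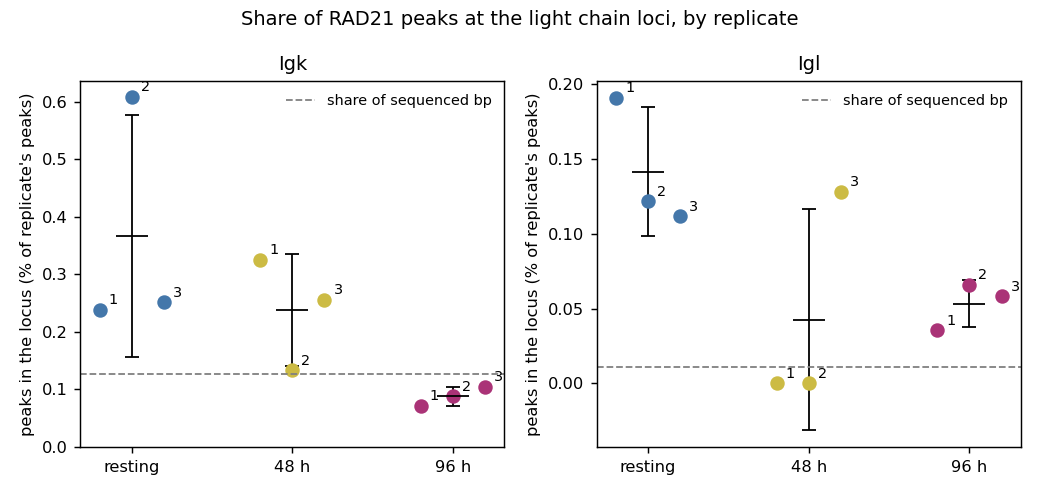
Peaks at Igk (left) and Igl (right) as a percent of all peaks of each replicate, by time point; points are replicates with their numbers, horizontal bars the mean, whiskers the SD (n = 3) and the dashed line the share of sequenced base pairs. At Igk the 96 h replicates, 0.0713 to 0.105%, lie below the line at 0.126%, and all other replicates above it. For 48 h replicate 2 this rests on 6 peaks at sites known from it alone.

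The V segments supply the variable part of the κ chain. The V region, from the start of the window to the end of the last V segment, takes up 3154172 of the 3220001 bp of the Igk window. It held 17 of the 21 Igk sites, a smaller part than its part of the length. Of these, 8 had a peak in a replicate other than 48 h replicate 2, 6 were known from that replicate alone and 3 from pooled lists alone, against 25.1% and 19.8% of all sites in the genome for the last 2 classes. No site overlapped a V segment. The distance to the nearest one ranged from 1280 to 41324 bp with a median of 8704 bp, 3 sites were within 3000 bp of a segment, and 12 lay on its 5′ and 5 on its 3′ side. V region peaks numbered 3, 3 and 5 in resting replicates, 2, 6 and 3 at 48 h, and 0, 2 and 6 at 96 h. All 6 in 48 h replicate 2 were at the sites known from it alone, and the 48 h mean includes them. The mean share of peaks was 0.216% ± 0.129 in resting cells, 0.145% ± 0.0411 at 48 h and 0.0380% ± 0.0354 at 96 h (SD, n = 3 each), and all 96 h replicates were below all resting ones (difference -0.178 percentage points, exact permutation p = 0.1). Without resting replicate 2 this difference was -0.103 percentage points (exact permutation p = 0.1). Among sites with a peak in a replicate other than 48 h replicate 2, there were gaps of 794448 bp (chr6:68888456-69682903) and 794256 bp (chr6:69865088-70659343).

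Igk-8 (chr6:68618474-68618788), 11925 bp upstream of Igkv10-95, was the V region site with most support, with a peak in 7 of 9 replicates. Only 2.7% of all sites in the genome had a peak in at least 7 replicates, and Igk-8 shared this with both sites 3′ of Igkc. Its percentiles were 48.2, 94.8 and 85.7 in resting replicates, 30.4 and 33.3 in 48 h replicates 1 and 3, and 50.9 and 51.8 in 96 h replicates 2 and 3. It ranked higher in every resting replicate than in every 48 h replicate, a pattern found at 5.91% of the 3759 sites with a peak in at least 3 replicates (exact permutation p = 0.1 at this site, adjusted p = 0.88). In the pooled lists it ranked at 93.7, 48.2 and 71.9 in resting, 48 h and 96 h cells.

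Igk-13 (chr6:69682904-69683203), 5934 bp upstream of Igkv5-48, had a peak in every resting replicate, at percentiles of 73.4, 15.0 and 93.1. It had 1 peak at 48 h, at 50.2 in replicate 1, and 1 at 96 h, at 30.6 in replicate 3. The resting percentiles spanned those of these later peaks, and the remaining 48 h and 96 h replicates had none. With a missing peak set to 0, the mean percentiles were 60.5, 16.7 and 10.2 in resting, 48 h and 96 h cells. Each later time against resting gave p = 0.2 (exact permutation test, adjusted p = 0.88). Igk-13 resembles 3 less supported sites nearby, Igk-14, Igk-15 and Igk-16, which were picked out after their values had been seen. The 4 sites were 81.1 to 84.8% identical over 271 to 450 aligned bp, and all had the motif on the minus strand. Igk-14 and Igk-15 each had a single replicate peak, in resting cells, and Igk-16 a single one at 96 h.

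Igk-6 (chr6:67983714-67983958) lay 2976 bp upstream of Igkv17-121, and its near copy Igk-3 (chr6:67808031-67808288), named here for this likeness, lay 2994 bp upstream of Igkv17-127. The sequences around their centres were 98.1% identical over 477 bp, and 32.8% of the 32-base words within 100 bp of each centre occur once in the genome. How reads with several equally good positions were placed between such copies is not stated. Igk-6 had percentiles of 22.1 and 27.1 in resting replicates 1 and 3, 84.0 in 48 h replicate 3 and 51.8 in 96 h replicate 3. Igk-3 had 19.1 in 48 h replicate 3 and 62.9 in 96 h replicate 3, and neither had a peak in 48 h replicates 1 and 2. Igk-10 (chr6:68888177-68888455), 1280 bp upstream of Igkv13-84 and the site nearest to a V segment, had percentiles of 1.90 in resting replicate 3 and 8.15 and 40.1 in 96 h replicates 2 and 3.

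In the V-J interval, the 18384 bp between Igkv3-1 and Igkj1, there were 2 sites only 131 bp apart. Igk-18 (chr6:70659344-70659575) was centred 5288 bp past the end of Igkv3-1 and 13097 bp before Igkj1, and Igk-19 (chr6:70659707-70659962) 12722 bp before Igkj1. Igk-18 had a peak in 1 replicate of each time point, at percentiles of 55.8 in resting replicate 3, 50.2 in 48 h replicate 1 and 11.2 in 96 h replicate 3, and in all 3 pooled lists, at 52.8, 70.9 and 22.5. Igk-19 had a single replicate peak, at 45.6 in resting replicate 3, and stood at 61.1 and 51.5 in the pooled lists of resting and 96 h cells. Resting replicate 3 and 96 h replicate 3 are the longest lists of their time points, and 6 of the 9 replicates had no peak in the interval. The sites were 84.5% identical over 142 bp and, as the sequences above show, their matches differ at few bases. All 32-base words around both occur once in the genome.

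No peak of any list lay between Igkj1 and the end of Igkc (chr6:70672556-70676751), the stretch that holds the J segments, the intron with the intronic enhancer and the constant segment. The peak-free stretch ran on to both sides, over 42517 bp from Igk-19 to Igk-20, and so included the first 25728 bp downstream of Igkc. The positions of the 3′ enhancers were not in the annotation. Neither this stretch nor the sites beyond it, Igk-20 and Igk-21, could therefore be matched to them.

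Igk-20 (chr6:70702480-70702812), centred 25895 bp past the end of Igkc and 13068 bp from Rpia, which encodes an enzyme of the pentose phosphate pathway, had a peak in all 9 replicates and all 3 pooled lists. Of all sites in the genome, 0.2% had a peak in all 9 replicates (38 sites). Its percentiles were 79.1, 20.7 and 99.8 in resting replicates, 97.9, 18.9 and 99.0 at 48 h, and 66.2, 88.6 and 99.3 at 96 h. The time points overlapped, and the lowest ranks came from resting replicate 2, the shortest list, and 48 h replicate 2, the list that stood apart. In the pooled lists it ranked at 96.4, 89.7 and 99.2, and all 32-base words around it occur once in the genome.

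Igk-21 (chr6:70718777-70719110), in an intron of Rpia and 42192 bp past the end of Igkc, had a peak in every resting and every 96 h replicate but in only 1 at 48 h. Its percentiles were 73.4, 55.9 and 14.7 in resting replicates, 36.5 in 48 h replicate 1, and 94.3, 54.8 and 86.2 at 96 h. It ranked higher in every 96 h than in every 48 h replicate, as did 31.8% of sites in at least 3 replicates (exact permutation p = 0.1, adjusted p = 0.88). The resting and 96 h values overlapped. Igk-21 lies 1057 bp inside the edge of the window, and the next site beyond, 28019 bp outside, had a peak in 1 replicate.

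**Figure D3:**
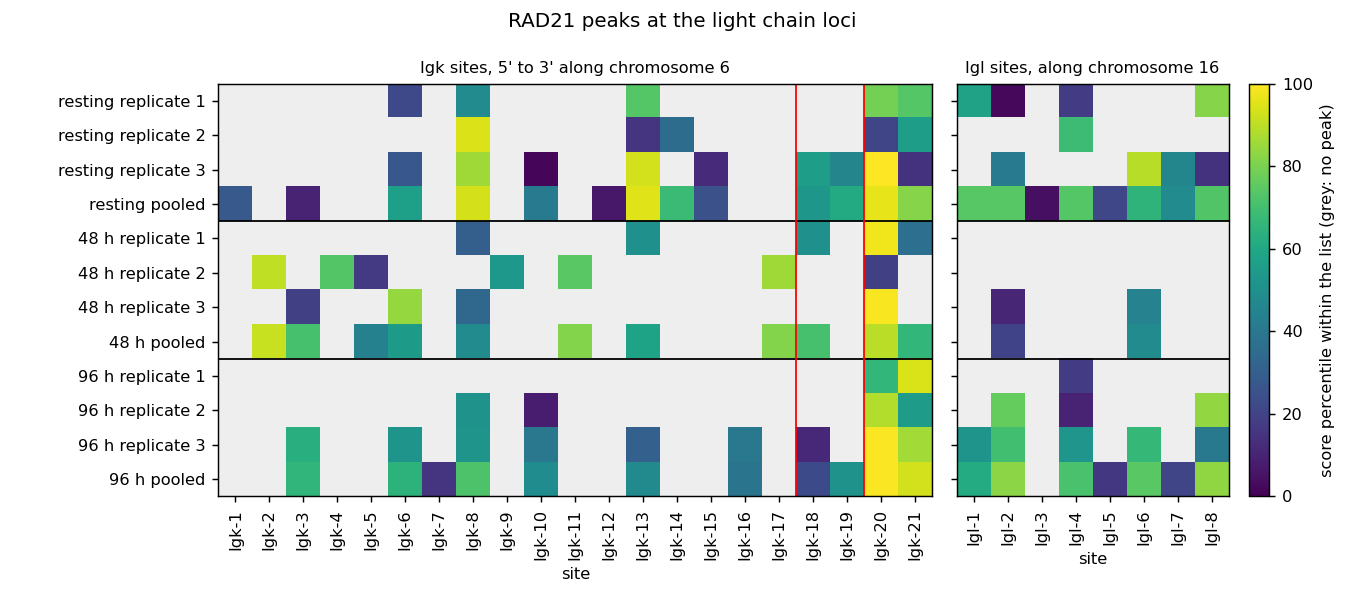
Score percentile (colour, 0 to 100) of the RAD21 peak at each of the 21 Igk and 8 Igl sites (columns) in each of the 12 lists (rows, by time point), with grey where a list has no peak and red lines around the V-J interval sites Igk-18 and Igk-19. Igk-20 is filled in every row, and Igk-2, Igk-4, Igk-5, Igk-9, Igk-11 and Igk-17 have no replicate peak outside 48 h replicate 2.

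At Igl, 6 of the 8 sites formed copied pairs, with 1 member of each pair at either gene cluster. Igl-4 (chr16:19088121-19088409), 2712 bp upstream of Iglv1, and Igl-8 (chr16:19263448-19263751), 2662 bp upstream of Iglv2, were 96.0% identical over 480 bp. Igl-2 (chr16:19003080-19003444) and Igl-6 (chr16:19146762-19147025) were 95.6% identical over 481 bp, and Igl-1 (chr16:19002745-19002958) and Igl-5 (chr16:19146354-19146533) 94.1% over 307 bp. Igl-1 and Igl-2 lie next to each other downstream of Iglc3, as do Igl-5 and Igl-6, 52051 and 51601 bp downstream of Iglc2. Between 71.1% and 87.1% of the 32-base words around these 6 sites occur once in the genome.

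Igl-4 had percentiles of 17.6 and 68.5 in resting replicates 1 and 2 and 17.3, 9.49 and 52.0 in the 96 h replicates, and no peak at 48 h. It was the only light chain site with a peak in every replicate of 1 time point and in none of another, and none of the Igk sites had this pattern. Only sites with a peak in at least 3 replicates can show this pattern. It was found at 1107 of these 3759 sites in the genome and at 1 of the 11 light chain sites of this class. Of the 15210 sites with a peak in any replicate, many with too few peaks to show it, 7.28% had it. Having no peak at 48 h, Igl-4 also ranked higher in every 96 h than in every 48 h replicate (exact permutation p = 0.1, adjusted p = 0.88). The same held for 31.8% of all sites with a peak in at least 3 replicates. Its copy Igl-8 had percentiles of 82.0 and 14.7 in resting replicates 1 and 3 and 83.8 and 40.4 in 96 h replicates 2 and 3, and likewise no peak at 48 h.

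The pair downstream of the constant genes was seen at all times. Igl-2 had percentiles of 1.96 and 41.6 in resting replicates 1 and 3, 10.6 in 48 h replicate 3, and 76.4 and 69.8 in 96 h replicates 2 and 3. Igl-6 had 89.3 in resting replicate 3, 44.2 in 48 h replicate 3 and 66.7 in 96 h replicate 3. Both were in all 3 pooled lists, and they were the only Igl sites with a peak at 48 h. Their neighbours had less support, with percentiles of 57.7 in resting replicate 1 and 51.8 in 96 h replicate 3 at Igl-1, and peaks in the pooled resting and 96 h lists only at Igl-5, at 21.4 and 16.2.

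The last 2 Igl sites were single. Igl-7 (chr16:19246004-19246267), 4363 bp upstream of Iglv3, had 1 replicate peak, at a percentile of 46.0 in resting replicate 3. Igl-3 (chr16:19067212-19067382), whose start overlaps the 5′ end of Iglc3 and whose centre lies 31 bp outside it, was in the pooled resting list only, at 4.25, and was the only Igl site without the motif. Igl-1 lies 2851 bp and Igl-8 26401 bp inside the edges of the window, and the next sites outside, 141076 and 98210 bp away, had a peak in 1 replicate each.

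Across the 7 Igk and 4 Igl sites with a peak in at least 3 replicates, ranks were compared between time points with a missing peak set to 0. Besides Igk-8, Igk-21 and Igl-4, named above, no site was separated between any pair of time points. For sites of the whole genome with at least 3 replicate peaks, the percentile was higher in every 96 h than in every resting replicate at 25.1% and the reverse at 1.3%. It was higher in every 48 h than in every resting replicate at 0.452%, and higher in every 48 h than in every 96 h replicate at 0.505%. None of the 11 light chain sites had these 4 patterns. Over 33 exact permutation tests at the 11 sites, the smallest p was 0.1, which is the smallest possible, and the smallest adjusted p was 0.88.

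**Figure D4:**
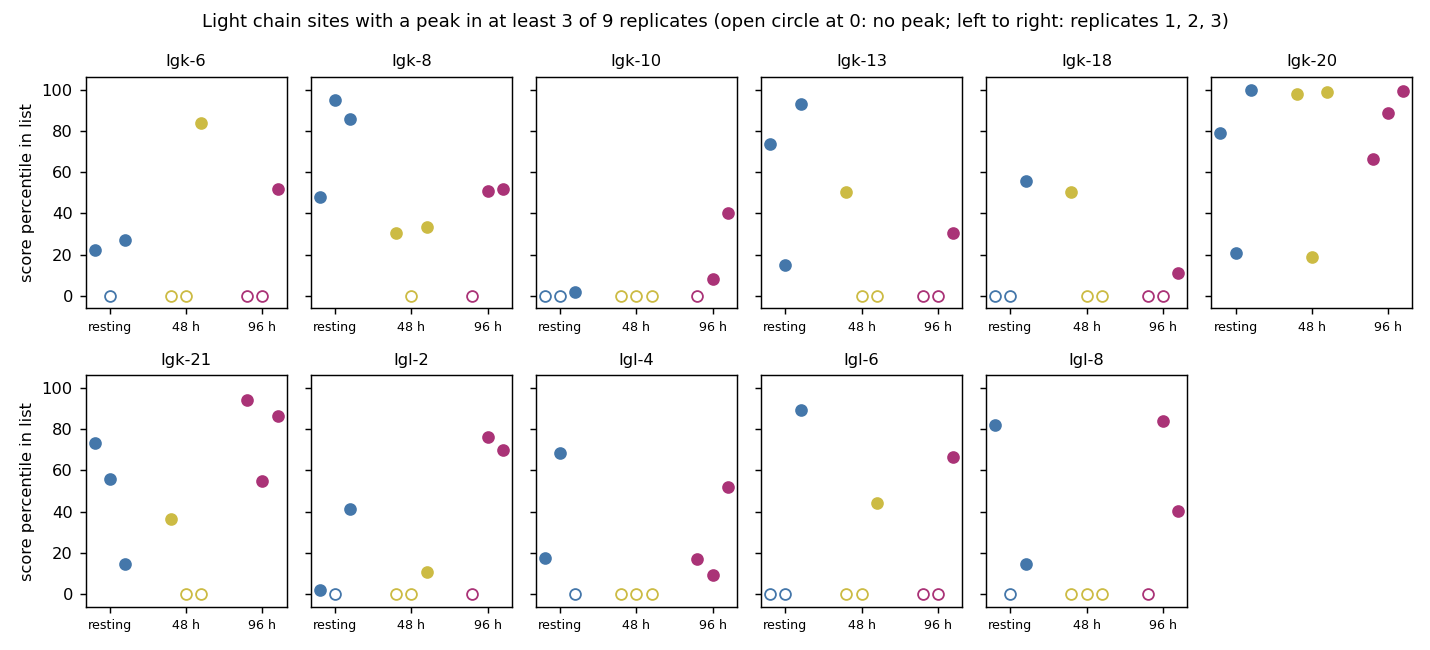
Score percentile within the list (vertical axis) at the 11 light chain sites called in 3 or more replicates, by time point; filled points are replicates 1, 2 and 3 from left to right, and open circles at 0 are replicates without a peak. At Igk-8 the resting replicates, 48.2 to 94.8, lie above the 48 h replicates, at most 33.3, and at Igk-20 all 9 replicates have a peak.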

How the data were processed

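RAD21 ChIP-seq was performed on 9 replicates with 9 matched input libraries, which were not used here on their own. The authors aligned reads to mm9 with Bowtie2 (also named in the submitters' processing notes), took a random subset of unique positions, the same number for every sample, and ran the MACS 2 peak caller with input as control and a limit on the false discovery rate, in each replicate and in pooled samples. The deposited value of a peak is the score of the authors' caller. Which statistic it is was not given in the sources used here, so it served only to rank peaks within a list. The read depth behind a peak is unknown, and intervals are exact binomial ones that cover counting error only.

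Peaks were assigned to a window by their centre and merged into sites when they shared at least 1 bp. The 9 replicates were compared by exact permutation tests (Python 3.11.15, numpy 2.4.6, scipy 1.17.1), with Benjamini-Hochberg adjustment and a threshold of 0.05, and p-values measure the spread between these replicates. Pooled lists entered no test. The matched sequences of 2 sites are not reported here. Gene segments were taken from GENCODE M1 on mm9, and sequences from the same assembly. Words of 32 bases were looked up in the whole genome, and pairs of sites were aligned over windows of up to 250 bp on each side of the centre with Biopython 1.88. Plots were drawn with matplotlib 3.10.9. Methods were tested on simulated data, where 300 of 300 sites, 3 of 3 exact p-values and 399 of 400 planted motifs were recovered.

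Named were all sites of the V-J interval, from Igkj1 to the 3′ end of the window and at Igl, and V region sites with a peak in at least 3 replicates. The loci, site lists and tests were chosen with earlier results of these data known. The uniqueness, tandem repeats and identity of sites, and the tests of the V region share and of Igl against the genome and between 96 h and resting cells, were added after the lists had been seen. Alternatives were list length, score minimum, merging, overlap, window limits, the replicate block, motif level and leaving out each replicate.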

Additional observations from a re-analysis of the deposited data

Results flagged for a closer look

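The Igk share of peaks lay above the share of sequenced base pairs in every resting and every 48 h replicate. In 48 h replicate 2 this held only with the 6 peaks at sites known from it alone. The share lay below that of base pairs in every 96 h replicate. This opposite position drew attention to 2 differences, of -0.278 percentage points between 96 h and resting cells and of -0.150 percentage points between 96 h and 48 h cells. Both differences were tested by exact permutation, with p = 0.1 for each, the smallest that 3 against 3 replicates can give, and an adjusted p = 0.15. The 96 h lists were longer than most others, with 2807, 4552 and 8579 peaks, and the cells had been enriched for IgG1-positive cells. With 821 peaks per list, Igk held 1 peak in every 96 h replicate and 1, 1 and 2 at 48 h, and the difference between 96 h and 48 h was -0.0406 percentage points (exact permutation p = 1). That between 96 h and resting cells was then -0.325 (exact permutation p = 0.1). As numbers of peaks, the differences were -1.33 against resting (exact permutation p = 0.6) and -0.33 against 48 h (exact permutation p = 1). The part of the purification was not tested.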

How the results depend on the processing

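Of 149 values recomputed under other settings, 135 kept their direction and side of the threshold or stayed within 1.5 times the count, and 0 reversed. For differences between 2 time points the side was fixed in advance, since no p below 0.1 was possible, and only the direction could change. F statistics, counts of sites and the motif share have no direction and could not reverse. The tally is therefore no measure of robustness. The Igk F statistic over 3 time points passed the threshold with 821 peaks per list (11.4, exact permutation p = 0.0357), with scores above the list median (5.35, exact p = 0.0429) and within the annotated segments (4.99, exact p = 0.025), but was 0.21 for the number of peaks not divided by list length (exact p = 0.843). It ranged from 2.05 to 5.61 when each replicate was left out, and under the replicate block, with permutation within replicate numbers that pair no samples by label, it stayed at 3.24 (exact p = 0.278). The Igl F statistic ranged from 1.59 to 15.4 when each replicate was left out, and was 15.4 (exact p = 0.00357) without 48 h replicate 3, the only 48 h replicate with Igl peaks. The Igk share exceeded the share of words found once by 0.143 percentage points (exact permutation p = 0.0117), and its share of the base pairs by 0.0239 within the annotated segments (exact p = 0.547). Without resting replicate 2, the Igk difference between 96 h and resting cells was -0.157 percentage points, that between 48 h and resting cells -0.0069, that of the V region -0.103 and the excess over the share of base pairs 0.0577. Scores above the list median left 13 Igk and 5 Igl sites. When each replicate was left out, with replicate lists alone, Igk sites numbered 12 to 18, with 12 without 48 h replicate 2, and Igl sites 5 to 6, with 5 without resting replicate 3. Igk sites found in all replicates at 1 time and in none at another numbered 0, but 1 with 821 peaks per list (Igk-13) and 0 to 2 when a replicate was left out, with 2 without 48 h replicate 1 (Igk-13 and Igk-21). The motif was present at 91.3% of sites without those known from 48 h replicate 2 alone. The cause of these changes was not tested.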

Other observations

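Tandem repeats were found at 4 light chain sites, Igk-2, Igk-9, Igk-11 and Igk-17, all known from 48 h replicate 2 alone and none with the motif. The repeat at Igk-2 had a unit of 3 bases and ran over 32 bp, and those at Igk-9, Igk-11 and Igk-17 had a unit of 2 bases and ran over 47, 44 and 39 bp. The peaks at Igk-2 and Igk-17 ranked high in that list, at percentiles of 90.4 and 85.7. Stretches of 24 bases from 2 of the repeats show the contrast with the motif sites.
Igk-2: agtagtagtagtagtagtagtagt
Igk-17: tctctctctctctctctctctctc

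Igk-5, also known from 48 h replicate 2 alone but with the motif, was 83.4% identical over 247 bp to the reverse strand of Igk-8, the V region site with peaks in 7 replicates. Its only replicate peak ranked at 16.9.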
